A study of Mus musculus with 50 samples.

Results

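The AP-1 and EGR immediate early genes are described here as 10 genes, Fos, Fosb, Fosl1, Fosl2, Jun, Junb, Atf3, Egr1, Egr2 and Egr3, out of 21954 genes in the tables. They were picked by name after the fall of Fosb and Atf3 between 3 and 6 hours in non-regenerative digits had been seen, so that interval is described without a test. The digits came from male C57Bl/6 mice of 9 to 10 weeks whose distal terminal phalanx (P3) of hindlimb digit 3 had been amputated, and the tissue around the wound bed was sequenced in bulk. Non-regenerative (NR) digits carried labelled amputation levels of 60 to 80% and were collected 0, 3, 6, 12 or 24 hours, or 3, 7, 14 or 21 days, after amputation (3 digits each, but 5 on day 7). Of these 29 digits, 11 carried levels of 60 to 65%, 2 of them at 0 hours, which the study's text places with intermediate digits; they are kept as NR here because their titles say so. Intermediate (Int) digits, titled Medium, carried levels of 41 to 55% and were collected after 0 or 24 hours or after 14 or 21 days (3 digits each). The macrophages were grown from bone marrow of female C57BL/6 mice of 6 to 8 weeks and were left in basal medium (M0, titled baseline), or given IFN-γ and LPS (M1) or IL-4 (M2) for 24 hours, with 3 libraries each. Both hindlimbs were operated on, the 0-hour digits were taken at the time of amputation, no group here is an intact digit, and regenerative digits were not analysed here.

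AP-1 is a pair of basic leucine zipper proteins, one usually from the Jun family and the other from the Fos or ATF family, that binds DNA as a dimer. The EGR proteins are zinc finger factors that bind GC-rich sites. Most genes of both families are immediate early genes: growth factors, stretch, wounding and bacterial products switch them on through kinases and factors that are already in the cell, with no need for new protein, and their messenger RNAs are short-lived. Fosl1 is the usual exception, a later gene whose transcription depends on AP-1 made earlier. In skin, AP-1 is known for its part in keratinocyte differentiation and wound closure, and in macrophages Atf3 is known as a brake on inflammatory genes, while Egr2 is a known IL-4-induced gene.

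All 10 genes were measured in all 41 digits and 9 macrophage libraries. Total expected counts ran from 1468749 to 13011782 in digits, the lowest being NR 3 hours replicate 3, and from 15683424 to 27904773 in macrophages. Levels are given as normalized TPM, which is per transcript length, and tests were run on counts with edgeR. Calls needed both an adjusted p under 0.05 (Benjamini-Hochberg, over all genes tested) and more than a 2-fold change of mean normalized count plus 1. Keratinocyte markers summed to 23245 to 125870 normalized TPM in digits and 31.6 to 207 in macrophages, and macrophage markers to 203 to 3002 and 15761 to 28499, so both materials carried the markers of their labels. In bulk tissue, fewer cells of a type and less RNA per cell cannot be told apart. Among the digits, 2 libraries stood apart: NR 14 days replicate 2, with a normalized TPM sum of 3362791, and NR 7 days replicate 2, in which Fosb, Fosl1 and Atf3 were at 0 counts. Digit titles carry a code and a side whose link to animals is not stated. No code was repeated within a group, time and date, but 5 combinations of code, date and side each occurred in 2 groups. The study's methods give several mice for each time, and the p-values measure the spread between these libraries.

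The titles of the digits also carry a date, which falls in July or August for 24 digits (earlier) and in November to January for the other 17 (later). What the date marks is not stated. The 3-hour and 12-hour NR digits and the 21-day Int digits all carry earlier dates, and the 21-day NR digits all carry later ones. The 0-hour levels of most of these genes differed between the dates, while those of Fosl1, Fosl2 and Egr3 overlapped.

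At 0 hours, Fos, the founding partner of Jun in AP-1, was at 1400, 1518 and 1555 normalized TPM in NR replicate 1 and Int replicates 2 and 3, which carry an earlier date. It was at 324, 141 and 121 in NR replicates 2 and 3 and Int replicate 1, which carry later dates. The 2 sets did not overlap, and each held digits of both amputation groups. Fosb, a close relative of Fos, was at 417, 508 and 470 normalized TPM in the earlier digits and at 73.5, 41.6 and 23.4 in the later ones, a 10.1-fold ratio of means. Atf3, the stress-induced ATF member, was at 97.3, 132 and 56.4 against 7.45, 11.8 and 7.24, a 10.8-fold ratio. Egr1, Jun, Egr2 and Junb were also higher in each earlier digit than in each later one, with ratios of 3.43, 2.39, 3.73 and 1.67, while Fosl1, Fosl2 and Egr3 overlapped. Separation of this kind, earlier above later, was seen for 7 of the 10 genes and for 15.0% of 13691 genes whose mean level was 1 normalized TPM or more.

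The split by date was chosen after the data had been seen. With the amputation group as a further term, edgeR called 6 of the 10 genes between the dates at 0 hours. All were higher in the earlier digits, where 0.993% of 13500 genes were called higher. Fosb differed by 3.61 on the log2 scale (SE 0.399, adjusted p = 0.00912), Atf3 by 4.0 (SE 0.338, adjusted p = 0.00302) and Fos by 3.24 (SE 0.399, adjusted p = 0.0104). Egr1 differed by 1.87 (adjusted p = 0.0107), Egr2 by 1.53 (adjusted p = 0.0478) and Jun by 1.35 (adjusted p = 0.0298). When each of the 6 digits was left out in turn, 4 or 5 genes were called: Fos, Fosb, Atf3 and Egr1 were called each time, Egr2 was lost each time, and Jun was lost without NR replicate 2 or 3 or Int replicate 1 or 3. The amputation level was the same, 62%, in NR replicate 1 (earlier) and NR replicate 2 (later). Other measures were set beside the date as well. Total counts were 4638950 to 7185002 in the earlier digits and 9398455 to 11980697 in the later ones, summed fibroblast markers 2136 to 4510 against 1623 to 2060 normalized TPM, endothelial markers 172 to 273 against 141 to 150, all without overlap. Keratinocyte markers overlapped at 27990 to 43042 against 41181 to 58799, macrophage markers at 286 to 472 against 222 to 292, and neutrophil markers at 19.2 to 41.3 against 21 to 38. The part of depth, cell makeup and date in the difference was not tested.

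**Figure D1:**
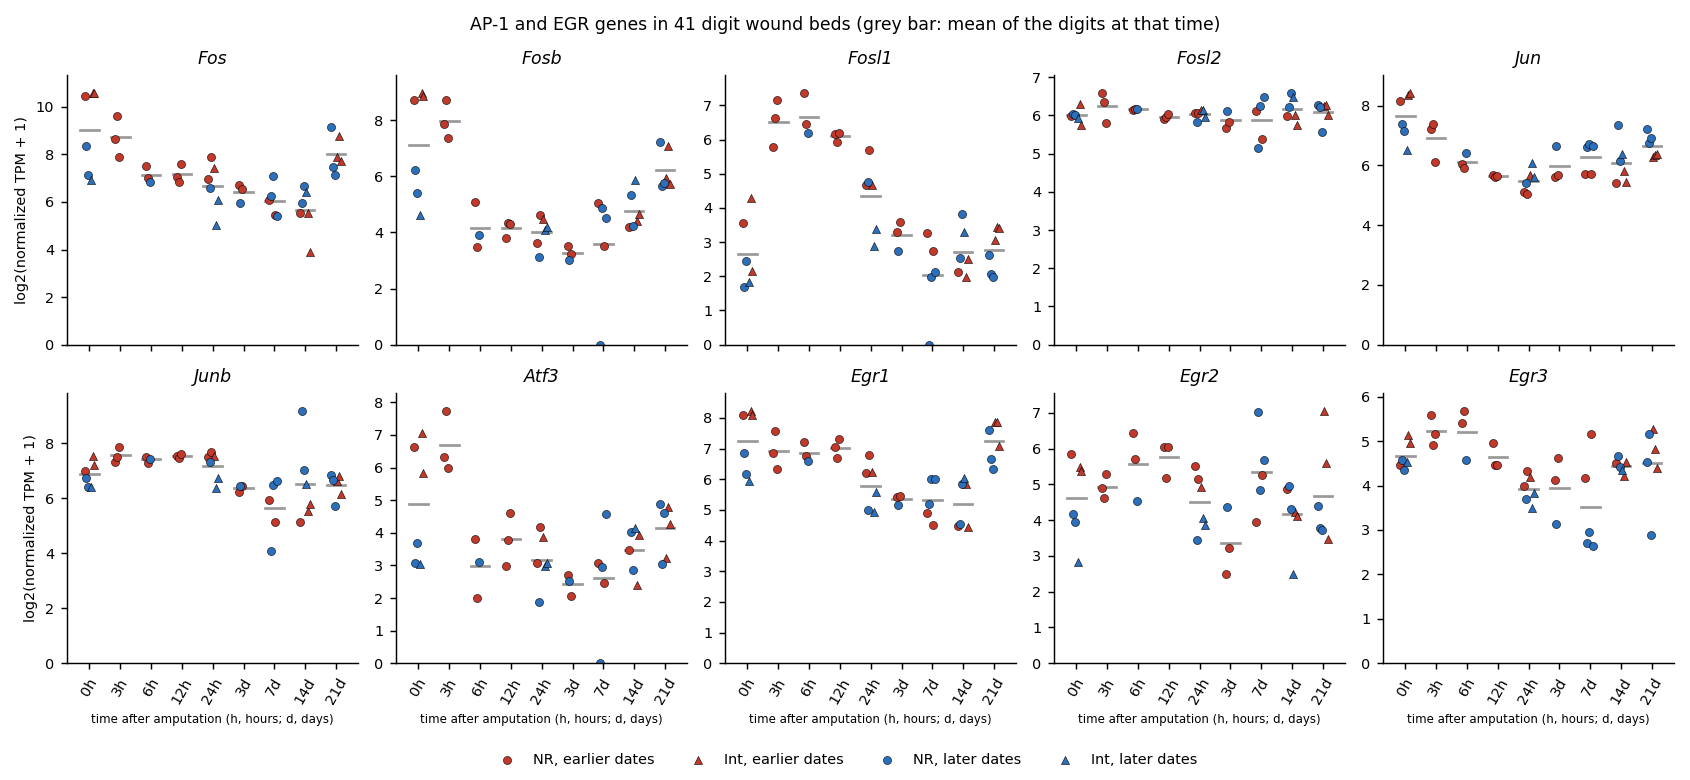
Each panel plots one gene as log2(normalized TPM + 1) against time after amputation, one point per digit (circles NR, triangles Int; red earlier and blue later label dates), with a grey bar at the mean of all digits at that time. At 0 hours the red points of Fos, Fosb, Atf3, Egr1, Jun, Egr2 and Junb lie above all blue points, Fosb and Atf3 drop between 3 and 6 hours, and Fosl1 is highest at 3 to 12 hours.

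The other genes of the response were taken from lists of known immediate early genes, regulators and targets. The lists were chosen with earlier results of these data known. Their genes moved with the date in part. Of all 13500 genes tested between the dates, 0.993% were called higher in the earlier digits, and the share called lower is not given here. Of 27 other immediate early genes 26 were tested, and 10 were higher and 1 lower in the earlier digits. Their median log2 difference was 1.1 against 0.03 over all genes tested. Nr4a1, an orphan nuclear receptor, was higher by 3.26 on the log2 scale (adjusted p = 0.00152), Ptgs2, the inducible cyclooxygenase, by 2.94 (adjusted p = 0.0125), Zfp36, which speeds the decay of AU-rich messenger RNAs, by 1.68 (adjusted p = 0.0107), and the antiproliferative gene Btg2 by 1.15 (adjusted p = 0.0228). The 1 lower gene was Ier5, by 1.23 (named after its value was seen). Of the 17 AP-1 and EGR targets tested, 5 were higher and 0 lower, namely Hbegf, Icam1, Il1b, Mmp9 and Spp1 (also named after their values were seen). Of the AP-1 partner genes, 0 of 11 tested were called in either direction by edgeR, with a median of -0.06. Among 20 upstream kinases, phosphatases and cofactors tested, Dusp1, the phosphatase that switches off MAP kinases, was the 1 called, higher by 1.56 (adjusted p = 0.014).

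The promoters of 3 genes with the largest differences are shown, since these genes moved together. The sequences are from RefSeq (GRCm38.p6), which had an entry for 7 of the 10 genes, and run 5′ to 3′ on the gene's strand from 160 to 11 bases before the start site. The windows are chr12:85473730-85473879 (plus strand, Fos), chr7:19310056-19310205 (minus strand, Fosb) and chr1:191183344-191183493 (minus strand, Atf3, which is intronic in a longer Atf3 transcript). Capitals mark TGACG, the core of the CRE site bound by CREB and ATF proteins, and GCGGGGGCG, the EGR site, both searched on either strand.
Fos: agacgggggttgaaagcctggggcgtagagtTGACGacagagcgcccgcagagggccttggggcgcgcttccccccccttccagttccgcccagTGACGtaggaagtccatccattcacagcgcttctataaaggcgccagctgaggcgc
Fosb: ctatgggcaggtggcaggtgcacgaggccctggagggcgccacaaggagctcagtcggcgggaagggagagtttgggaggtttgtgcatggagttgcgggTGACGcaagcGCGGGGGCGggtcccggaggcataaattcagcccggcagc
Atf3: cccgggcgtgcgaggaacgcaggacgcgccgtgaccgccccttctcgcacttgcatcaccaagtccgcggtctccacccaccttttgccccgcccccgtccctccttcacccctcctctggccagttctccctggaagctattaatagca
Fos held TGACG at 129 and at 66 bases before the start, Fosb held TGACG at 60 and GCGGGGGCG at 50, and neither string occurred in the Atf3 window. TGACG was found in 12.9% and GCGGGGGCG in 1.95% of 32851 promoter windows of 150 bases. The CArG box bound by SRF, searched by its name's usual pattern, was in 0.935% and in none of these 3 windows. Bases outside the windows were not searched, so a site further upstream would be missed.

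At 24 hours, 5 genes were higher in each earlier than in each later digit (Fos, Junb, Egr1, Egr2 and Egr3, against 11.8% of genes), but 0 of the 10 were called by edgeR, where 1.21% of genes were, 6 were under an unadjusted p of 0.05 (17.5% of genes were), and DESeq2 called 2, Fos and Egr1. Fos was at 176 ± 56.5 (SD, n = 3) against 65.1 ± 32.1 normalized TPM (SD, n = 3). At 14 days the order was the other way for Fos, Fosl1, Fosl2, Jun and Junb, which were higher in each later digit (against 11.8% of genes). There 0 were called by edgeR, where 0% of genes were, 0 were under an unadjusted p of 0.05 (1.66% of genes were), and DESeq2 called 0. The later 14-day digits include NR replicate 2, which stood apart in its normalized TPM sum. Without it 0 were called as well, but Junb went from an adjusted p of 0.968 to 0.0583 (edgeR). Summed neutrophil markers at 24 hours were 1206.8 to 1354.5 normalized TPM in the earlier digits and 142 to 1136 in the later ones, and their part in the difference was not tested. The change in the date difference was tested itself: between 0 hours and 14 days it had an unadjusted p under 0.05 for 8 of the 10 genes, against 796 of 14133 genes tested, and an adjusted p under 0.05 for none of the 10 (Atf3, 4.35 on the log2 scale, adjusted p = 0.139, edgeR), where 0.0142% of genes passed. Between 0 and 24 hours these numbers were 4, against 1648 of 13996 genes, and 0 (Atf3, 3.04, adjusted p = 0.18, edgeR), where 0.0286% of genes passed.

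**Figure D2:**
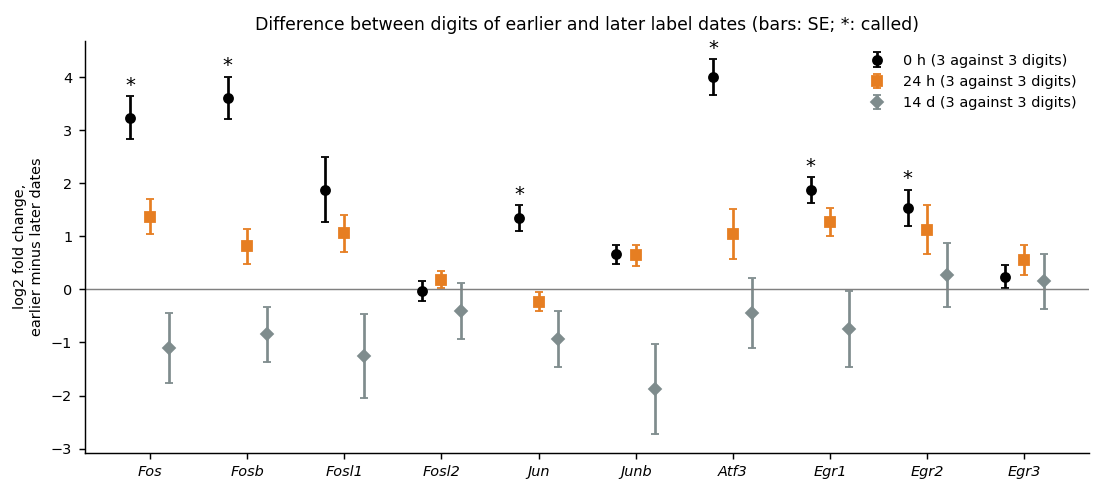
For each gene the plot gives the log2 fold change of earlier over later label dates at 0 hours (black), 24 hours (orange) and 14 days (grey), 3 digits against 3, with bars for the SE and a star where the gene was called. At 0 hours Fos, Fosb, Jun, Atf3, Egr1 and Egr2 carry stars, at values from 1.35 to 4.0, and at 24 hours and 14 days none does.

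Between 3 and 6 hours in NR digits, Fosb went from 231, 420 and 164 to 32.9, 10.3 and 14.1 normalized TPM in replicates 1 to 3. In normalized counts this was 4386 ± 2186 and 296 ± 178 (SD, n = 3), a 14.8-fold lower mean at 6 hours. Atf3 went from 79.8, 211 and 62.2 to 13.2, 3.02 and 7.65 normalized TPM, and was 14.4-fold lower in counts. Both were lower in each 6-hour digit than in each 3-hour digit. Fos was 3.46-fold lower at 6 hours without overlap, at 4177 ± 2463 and 1205 ± 280 normalized counts (SD, n = 3). Egr2 moved the other way without overlap in counts, from 85.5 ± 18.1 to 227 ± 73.3 (SD, n = 3), 2.64-fold higher. On the normalized TPM scale, Egr2 overlapped between the times, at 23.5 to 38.2 and 22.1 to 85.8. Fosl1, Fosl2, Jun, Junb, Egr1 and Egr3 overlapped between the times. In all, 7 of the 10 means were lower at 6 hours, Fosb and Atf3 among them. The share of all genes with a lower mean is not given here. The share of all genes without overlap between 3 and 6 hours is not given here. In the splits by date, also 3 digits against 3, 10.6 to 15.0% of genes were without overlap in a given direction. The genes were picked after the falls of Fosb and Atf3 had been seen. The 3-hour digits all carry earlier dates, and 2 of the 3 at 6 hours do.

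Against 0 hours, Fosl1 was the gene that stood highest early after amputation. Its normalized TPM was 2.25 to 18.5 over the 6 digits at 0 hours, 53.8, 98.6 and 142 at 3 hours, 165, 86.4 and 72.2 at 6 hours, 71.0, 60.4 and 72.8 at 12 hours, and 24.6, 26.3 and 50.6 in NR digits at 24 hours. All NR digits from 3 to 24 hours were above all 0-hour digits. By 3 days it was at 5.72 to 11. The 3-hour difference from NR 0 hours was 18.6-fold in counts and missed the threshold in edgeR (log2 4.22, SE 0.593, adjusted p = 0.164), in a comparison in which 0% of 12562 genes were called and 3 of the 10 genes had an unadjusted p under 0.05 (10.8% of all genes). DESeq2 called Fosl1 alone of the 10, and edgeR without NR 0 hours replicate 1 called Fosl1 and Atf3. Fosl1 overlaps Ccdc85b on the other strand, and the sources used here do not say that counting used the strand, so reads of the pair cannot be told apart. The same holds for Jun and Junos, Junb and Prdx2, and Atf3 and Gm24748.

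At 6 hours 2 of the 10 genes were called against NR 0 hours, where 4.85% of genes were. Fosl1 rose 20.3-fold (log2 4.34, SE 0.567, adjusted p = 0.00712), and Jun, the central AP-1 subunit, fell 2.72-fold (log2 -1.44, SE 0.292, adjusted p = 0.0307). Without NR 0 hours replicate 3 neither was called, Jun was lost without NR 0 hours replicate 2 or NR 6 hours replicate 1 or 2 and in one fit of all 41 digits with or without the date as a term (adjusted p = 0.0852 and 0.0993, edgeR), and Egr2 or Egr3 was added without NR 0 hours replicate 1 or NR 6 hours replicate 3. At 12 hours 3 were called, where 11.4% of genes were: Fosl1 rose 12.9-fold (adjusted p = 0.00271), Jun fell 3.85-fold (adjusted p = 0.00312) and Fosb fell 9.85-fold (adjusted p = 0.0242). At 24 hours the same 3 were called, where 10.7% of genes were: Fosl1 was 6.34-fold higher (adjusted p = 0.0139), Jun 5.30-fold lower (adjusted p = 0.00148) and Fosb 11.7-fold lower (adjusted p = 0.0265). The Fosl1 call at 24 hours was lost in the fit of all 41 digits (adjusted p = 0.0571, edgeR), in that fit with the date as a term (0.0512) and without NR 0 hours replicate 3 (0.0592). The Fosb calls were lost without any 1 of the 12-hour digits and without any 1 of the 24-hour digits. Junb, which often opposes Jun, was 1.84-fold and 1.80-fold higher at 12 and 24 hours, at adjusted p of 0.0146 and 0.0227 (edgeR), under the 2-fold threshold.

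Because the 0-hour digits were of both dates, the 12-hour change was also taken among earlier digits alone, against the 3 earlier 0-hour digits of both groups, which carry the same date as the 12-hour digits. These 0-hour digits also carry the same codes and side as the 12-hour digits. What that means for animals is not stated, and no pairing was used. Of the 3, 2 are Int (53 and 55%) and 1 is NR (62%), while the 12-hour digits are NR (64 to 67%). Time and amputation level were thus partly mixed. In this comparison 6 of the 10 genes were called, where 12.9% of genes were. Fosb fell 26.2-fold (log2 -4.71, SE 0.202, adjusted p = 1.5e-05), Fos 9.41-fold (log2 -3.23, SE 0.21, adjusted p = 8.5e-05), Atf3 7.99-fold (log2 -3.00, SE 0.347, adjusted p = 0.00092), Jun 6.21-fold (adjusted p = 4.3e-05) and Egr1 2.06-fold (adjusted p = 0.00395), and Fosl1 rose 6.36-fold (adjusted p = 0.00434). Among earlier digits at 3 hours 0 of the 10 were called by edgeR, where 0% of genes were, and 5 had an unadjusted p under 0.05 (10.7% of genes had): Fos was 2.89-fold and Jun 2.35-fold lower than at 0 hours, and Fosb (1.58-fold lower) and Atf3 (log2 0.15) did not pass that threshold. Fosb and Atf3 were higher in each 3-hour digit than in each 0-hour digit of later dates, but the 3-hour digits all carry earlier dates. Time and date cannot be told apart there, and both genes were picked after their fall from 3 hours had been seen.

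With both amputation groups and the group as a term, 24 hours differed from 0 hours for 5 of the 10 genes, all lower, where 7.75% of 13205 genes were called and 3.57% lower. Fosb fell 14.4-fold (log2 -3.85, SE 0.711, adjusted p = 0.0029), Fos 6.35-fold (log2 -2.67, SE 0.734, adjusted p = 0.0205), Atf3 6.0-fold (adjusted p = 0.0312), Jun 4.87-fold (adjusted p = 0.00038) and Egr1 2.89-fold (adjusted p = 0.0306). The within-date values differed in number of calls. Within the earlier dates 6 were called, where 13.3% of genes were, the same 5 plus Fosl1, with Fosb at log2 -4.55, Fos at -2.95 and Atf3 at -3.24. Within the later dates 1 was called, Jun at -1.37 (adjusted p = 0.042), where 1.78% of genes were. There Atf3 was at -0.07 (SE 0.379), Fos at -1.42 (SE 0.466, adjusted p = 0.141) and Fosb at -1.76 (SE 0.441, adjusted p = 0.0774). Leaving out 1 digit of all 12 gave 2 to 5 calls, with 2 without NR 0 hours replicate 1; Atf3 and Egr1 were each lost in most of these fits.

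**Figure D3:**
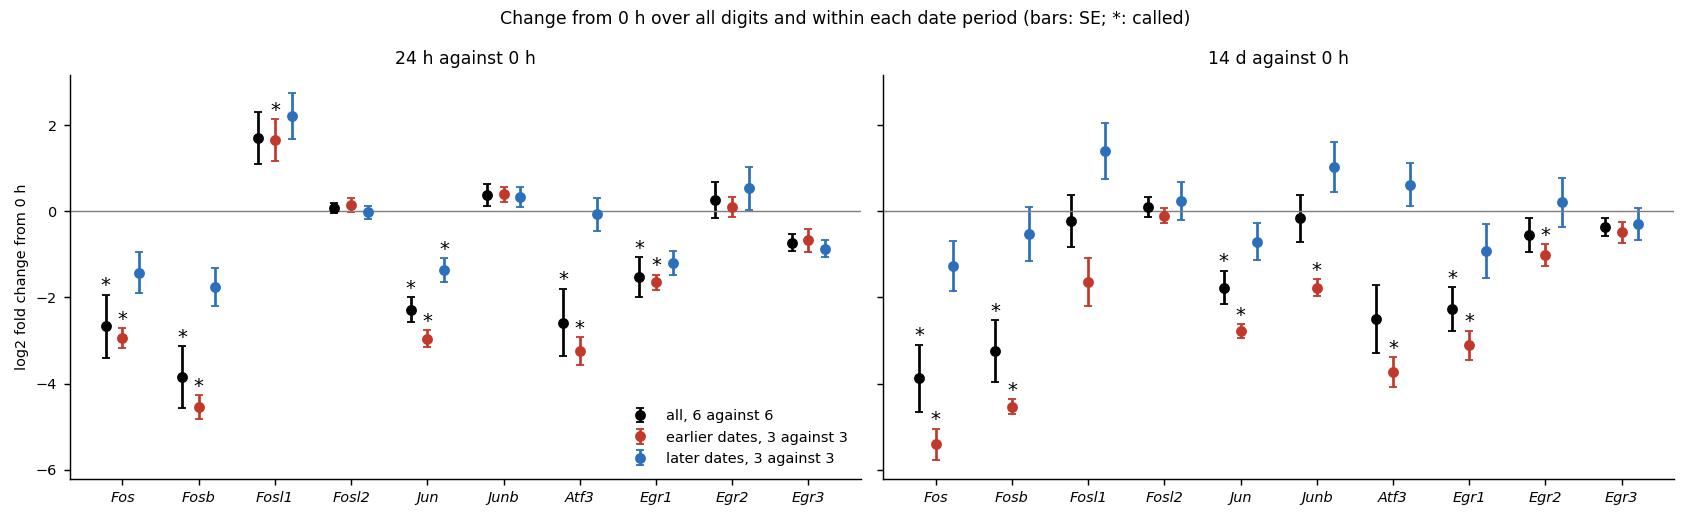
The log2 fold change from 0 hours at 24 hours (left) and 14 days (right) is plotted for each gene over all digits (black, 6 against 6), within earlier dates (red, 3 against 3) and within later dates (blue, 3 against 3), with bars for the SE and stars for called genes. Red values of Fos, Fosb, Jun and Atf3 lie below the blue ones at both times, and Fosl1 at 24 hours is similar in the 3 fits (1.70, 1.65 and 2.21).

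At 14 days with both groups, Fos fell 14.7-fold (log2 -3.88, SE 0.781, adjusted p = 0.0175), Fosb 9.51-fold (adjusted p = 0.0293), Egr1 4.83-fold (adjusted p = 0.029) and Jun 3.41-fold (adjusted p = 0.0276), so 4 of the 10 were called, all lower, where 2.51% of genes were called and 0.263% lower. Fos had its lowest digit of the series here, at 13.8 normalized TPM in Int replicate 3. Within the earlier dates 7 were called, all lower, where 5.13% of genes were called and 1.81% lower; Fos was 42.7-fold lower, and Atf3, Junb and Egr2 were the 3 added. Within the later dates 0 were called by edgeR, where 0% of genes were, and 0 had an unadjusted p under 0.05 (8.54% of genes had). The 14-day digits of later dates include NR replicate 2, the library that stood apart in its normalized TPM sum. Its part in the differing numbers of calls was not tested. Over all 12 digits, 0 were called without NR 0 hours replicate 1 or without Int 14 days replicate 2, and 1 to 4 without each other digit.

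At 21 days Fos was higher in each digit than in any digit of 14 days. It was at 568.2, 177 and 140 normalized TPM in NR digits, all of later dates, and at 239, 439 and 207 in Int digits, all of earlier dates. With both groups 0 of the 10 genes were called by edgeR against 0 hours, where 1.94% of genes were, and 2 had an unadjusted p under 0.05 (14.2% of genes had). The Int digits against the 3 earlier 0-hour digits gave 4 calls, all lower (Fos log2 -2.28, Fosb -2.51, Atf3 -2.40, Jun -2.03), where 1.59% of genes were called and 0.486% lower, and the NR digits against the 3 later ones gave 0, where 0.831% were, with Atf3 at 1.51 (SE 0.425, adjusted p = 0.232), the 1 gene with an unadjusted p under 0.05 (10.7% of genes had). At 21 days the group and the date cannot be told apart.

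For NR digits alone against NR 0 hours, 0 of the 10 genes were called by edgeR at 3, 7, 14 and 21 days, where 0.723%, 0.0537%, 0% and 0.452% of genes were. At these times 5, 5, 4 and 1 of them had an unadjusted p under 0.05, where 11.1%, 4.34%, 7.7% and 7.2% of genes had, and DESeq2 called 3, 1, 3 and 0. Among later digits alone, 7 days against 0 hours gave 0 calls by edgeR, where 0.0758% of genes were called, and 2 genes at an unadjusted p under 0.05 (10.1% of genes had). Fosb at 3 days was at 10.5, 7.03 and 8.37 normalized TPM, below all 0-hour digits, and lower in counts (log2 -4.32, SE 0.823, adjusted p = 0.0638, edgeR). For Int digits against Int 0 hours, 0 were called at 24 hours, 14 days and 21 days, where 0.0152%, 1.68% and 1.39% of genes were, with 6, 7 and 3 at an unadjusted p under 0.05, where 15.4%, 13.4% and 16.6% of genes had one, and 3, 3 and 1 called by DESeq2. Without Int 0 hours replicate 1, the only later digit of that group, these 3 counts were 2, 5 and 4. At 14 days they were 3 without Int replicate 1 of that time.

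Int and NR digits of the same time were compared directly. At 0 hours, 24 hours, 14 days and 21 days 0 of the 10 genes were called by edgeR, where 0%, 0%, 0% and 0.648% of genes were, 0, 2, 0 and 3 had an unadjusted p under 0.05, and DESeq2 called 0 at each time. Over all genes, 3.64%, 11.3%, 270 of 13421 and 14% had such an unadjusted p. At 0 hours Fos was at 1065 ± 818 in Int and 621 ± 680 normalized TPM in NR digits (SD, n = 3 each), and each group held digits of both dates. At 24 hours Fosl1 was at 24.7, 6.40 and 9.48 in Int and 24.6, 26.3 and 50.6 normalized TPM in NR digits (2.53-fold lower in counts, adjusted p = 0.4, edgeR). Without Int 24 hours replicate 1 Fosl1 was called, at an adjusted p of 0.0184 (edgeR). That digit is the only Int digit of an earlier date at 24 hours, while 2 of the 3 NR digits carry earlier dates. Without it, group and date were thus partly mixed. Jun at 24 hours was at 47.3 to 66.4 against 31.9 to 41.2 normalized TPM without overlap (1.53-fold higher in counts, adjusted p = 0.376, edgeR). The difference of the 24-hour change between the groups had an unadjusted p under 0.05 for 0 of the 10 genes in edgeR, against 8.09% of genes, and 0% of genes passed at an adjusted p under 0.05. Its interval was wide for Fos, -1.61 on the log2 scale with an SE of 1.32.

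The lists of related genes were counted over the same hours. They were chosen with earlier results of these data known, so the counts are descriptions and no separate support. Against NR 0 hours, 13 of 19 AP-1 and EGR targets tested rose and 0 fell at 6 hours, with a median log2 change of 3.58 against -0.03 over all genes. At 12 hours 18 of 20 rose and 0 fell, with a median of 4.39 against -0.03 over all genes. Of all genes, 4.85% were called in either direction at 6 hours and 11.4% at 12 hours. The 12-hour digits all carry earlier dates and 2 of the 3 NR 0-hour digits later ones. Some targets, Il1b among them, also differed between the dates at 0 hours. Mmp3, the matrix protease stromelysin, rose by 6.12 at 6 hours and 7.52 at 12 hours on the log2 scale (adjusted p = 0.00455 and 0.00023, edgeR). At 6 hours Il6, an inflammatory cytokine, rose by 4.44 (adjusted p = 0.0213) and Areg, an EGF receptor ligand, by 4.26 (adjusted p = 0.0006). At 12 hours the monocyte chemokine Ccl2 rose by 7.10 (adjusted p = 0.00023) and the cytokine Il1b by 6.53 (adjusted p = 0.00235). Of other immediate early genes, 8 of 26 rose and 0 fell at 6 hours, and 10 rose and 3 fell at 12 hours. Klf2 and Klf4, Krüppel-like factors, fell by 1.69 and 1.34 at 12 hours (adjusted p = 0.0263 and 0.0312), and the AP-1 partner Jund fell by 1.71 (adjusted p = 0.00296), while 2 of 11 partners rose at each time. Upstream genes rose in 2 of 20 at 6 hours and 4 of 21 at 12 hours, and 0 fell. At 24 hours with both groups, 15 of 18 targets rose, where 7.75% of all genes were called in either direction and 3.57% lower. Mmp3 was at 6.49, Il1b at 5.39 and Timp1, the metalloprotease inhibitor, at 4.78 (adjusted p = 1.6e-05, 0.00108 and 0.00043, edgeR). Klf2, Btg2 and Zfp36 fell by 1.98, 1.53 and 1.14 (adjusted p = 0.00268, 0.00138 and 0.0461), among 3 falls and 6 rises of 26 other immediate early genes. Summed neutrophil markers rose alongside, from 19.2 to 41.3 normalized TPM at 0 hours to 189 to 252 at 6 hours and 412 to 1138 at 12 hours, and their part was not tested.

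Over the 41 digits, members differed in what they went with. Spearman's rho of normalized TPM was 0.91 for Fos and Egr1, 0.828 for Fosb and Atf3 and 0.712 for Fosl1 and Junb, and it was -0.321 for Fosl1 and Jun and 0.03 for Jun and Junb. These are descriptions over digits that share times and dates. Fosl2 varied little, at 34.3 to 95.9 normalized TPM over all digits, and was called in none of the digit comparisons. Among 13681 other genes, the 4 whose pattern was most like the mean of the 10 (z-scored log2 values, 41 digits) were Zfp36 with a rho of 0.905, Btg2 with 0.886, Nr4a1 with 0.839 and Dusp1 with 0.74. Zfp36, Btg2 and Nr4a1 are on the list of other immediate early genes and Dusp1 on that of upstream genes.

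In macrophages the libraries of a group lay close together, and the stimuli moved different members. Atf3 was at 52.6, 50.5 and 52.9 normalized TPM in M0, 941, 857 and 876 in M1 and 310, 316 and 309 in M2. Egr2 was at 4.48, 5.03 and 6.12 in M0, 1.65, 2.02 and 1.90 in M1 and 120.0, 124 and 119.9 in M2. The 3 groups did not overlap for either gene, with Atf3 highest in M1 and Egr2 highest in M2. Junb went from 46.5, 50.0 and 55.1 in M0 to 583, 543 and 546 in M1 and 169, 144 and 128 in M2, and Fos from 7.66 to 11.8 in M0 to 46.9 to 51.0 in M1 and 31.0 to 34.2 in M2. Both were thus higher in every stimulated library than in every M0 library.

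M1 against M0 called 6 of the 10 genes, where 46.1% of 12939 genes were called, so the count by itself is near the background. Atf3 rose 17.6-fold (log2 4.14, SE 0.0583, adjusted p = 2.8e-14), Junb 11.1-fold (log2 3.48, SE 0.0664), Fos 5.45-fold (log2 2.45, SE 0.113) and Fosl2 2.43-fold (log2 1.28, SE 0.0444). Egr2 fell 2.67-fold (log2 -1.42, SE 0.149) and Egr3 5.75-fold (log2 -2.52, SE 0.301), the latter from 57.2 to 9.76 mean normalized counts. M2 against M0, which shares the M0 libraries, called 6 of the 10, where 22.3% of 12976 genes were called. Egr2 rose 25.3-fold (log2 4.66, SE 0.062, adjusted p = 3e-12), Atf3 5.87-fold (log2 2.55, SE 0.0482), Fos 3.36-fold (log2 1.75, SE 0.121), Junb 2.79-fold (log2 1.48, SE 0.0974) and Fosl2 2.24-fold (log2 1.16, SE 0.0445). Fosb fell 2.71-fold at very low counts, 4, 11 and 5 reads in M2 and 18, 18 and 20 in M0. Jun, Fosl1 and Egr1 were under the 2-fold threshold in both. In edgeR all these calls in both comparisons had adjusted p of at most 0.00679.

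M1 against M2 tested 9 of the 10 genes, as Fosb was filtered out for low counts, and called 5, where 48% of 12934 genes were called. Junb was 3.73-fold (log2 1.90, SE 0.0821), Atf3 2.81-fold (log2 1.49, SE 0.0539) and Fosl1 2.29-fold (log2 1.2, SE 0.0979) higher in M1. Egr2 was 72.6-fold (log2 -6.18, SE 0.0759) and Egr3 5.64-fold (log2 -2.50, SE 0.27) higher in M2, all with an adjusted p of at most 7.6e-07 (edgeR). Fosl2 did not pass the test, at log2 0.03 with an SE of 0.0467. The macrophage labels carry no date.

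**Figure D4:**
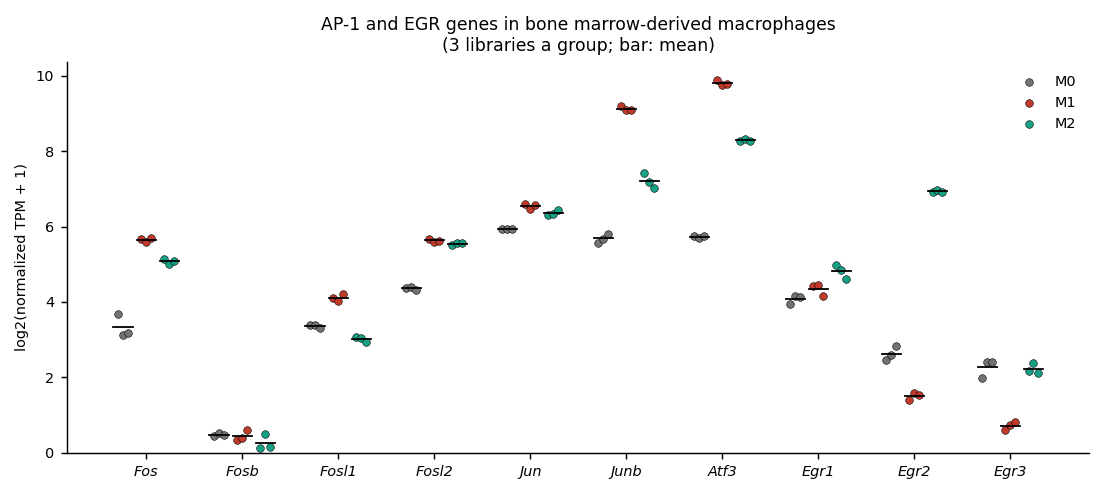
Each gene is plotted as log2(normalized TPM + 1) in the 9 macrophage libraries (grey M0, red M1, green M2), one point per library and a bar at the group mean. Atf3 and Junb are highest in the 3 M1 libraries, Egr2 in the 3 M2 libraries, and Fosb is near 0 in all 9.

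The promoters of Junb and Egr2, one led by M1 and the other by M2, are shown in the same way. The windows are chr8:84978759-84978908 (minus strand, Junb) and chr10:67537710-67537859 (plus strand, Egr2), the latter at 1 of 5 listed Egr2 start sites and intronic in longer Egr2 transcripts. Capitals mark TGACG on either strand and, in Egr2, a CArG box, the site of SRF.
Junb: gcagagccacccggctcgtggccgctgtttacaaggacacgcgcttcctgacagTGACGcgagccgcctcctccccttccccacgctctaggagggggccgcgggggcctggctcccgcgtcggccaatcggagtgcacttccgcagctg
Egr2: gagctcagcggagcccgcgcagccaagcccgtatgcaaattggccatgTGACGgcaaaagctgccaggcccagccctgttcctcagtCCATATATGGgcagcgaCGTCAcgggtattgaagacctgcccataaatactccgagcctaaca
Junb held TGACG at 106 bases before the start. Egr2 held it at 112 and, on the other strand, at 56, and the CArG box at 73. No motif of these 3 overlapped another in the windows shown.

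The related lists, chosen with earlier results of these data known, were counted in macrophages as well, as a description. In M1 against M0, where 20.1% of all genes were called higher, 14 of 19 targets rose and 0 fell, with a median log2 change of 2.88 against -0.09 over all genes, led by Il6 (log2 10.43), Ptgs2 (9.70, an immediate early gene) and Il1b (6.26). Other immediate early genes rose in 16 of 26 and fell in 1, Nr4a1 (log2 -1.89). AP-1 partners rose in 8 of 14 and fell in 1, and upstream genes rose in 6 of 21 and fell in 1. In M2 against M0, where 11% of all genes were called higher, 12 of 18 targets rose and 1 fell, 10 of 26 other immediate early genes rose and 1 fell, 4 of 14 partners rose and 1 fell, and 5 of 21 upstream genes rose and 2 fell. Ccl2 (log2 3.55), Ptgs2 (3.38) and Batf3, an AP-1 partner of dendritic cells (3.23), led the rises, and Nr4a1 (-1.99), Dusp6, a phosphatase of ERK (-1.18), and the growth factor Vegfa (-1.04) the falls, all with an adjusted p of at most 1.5e-06 (edgeR). Since M0 is shared, the M1 and M2 counts are given side by side and not compared.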

How the data were processed

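Poly A+ RNA of 41 digits and 9 macrophage cultures was sequenced by the authors with the LM-Seq protocol. The deposited gene tables hold expected counts, made by the authors with RSEM 1.2.3 on the mouse mm10 build, and TPM that the authors rescaled between samples by median ratios, a signal whose sum differs between libraries. Expected counts were rounded to whole numbers here. In the tables, 26 gene names that had been turned into dates were restored.

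Each comparison was fitted on its own groups with edgeR 4.0.16 in R 4.3.3 (filterByExpr, TMM, quasi-likelihood test), over all genes passing the filter, with Benjamini-Hochberg adjustment. The caller named in the study's methods was not used here. A call needed an adjusted p under 0.05 and more than a 2-fold change of mean normalized count plus 1. Fits with both amputation groups carried the group as a term. Comparisons between and within label dates were added after seeing the data. Alternatives were DESeq2 1.42.0, limma 3.58.1 on log2(normalized TPM + 1 or 0.1), other size factors, no filter, no fold threshold, all samples in one fit, a replicate block and leaving out each library.

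The 10 genes and the lists of related genes and cell markers were chosen with earlier results of these data known. Pathway genes were named by size of change among called list members with a mean of at least 100 normalized counts, up to 3 in each direction, and like-patterned genes by rank of Spearman's rho. One result that the rule would name is not reported here. Other names are marked in the text. Digit replicate numbers follow the order of the records, and neither they nor the codes in the titles were used to pair digits. Replicate libraries differed by more than sampling noise in all 55 pairs (chi-square per degree of freedom 3.05 to 411).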

Additional observations from a re-analysis of the deposited data

How the results depend on the processing

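In macrophages all 236 single-gene values of genes called above kept direction and call under alternatives. Genes not called above are not in this number. Without the fold threshold, Fosl1, Jun and Egr1 were also called in M1 against M0 and in M2 against M0. Without the count filter, 2 changes near 0 turned sign: Fosb in M1 against M0 (log2 0.014 to -0.045) and Fosl2 in M1 against M2 (0.028 to -0.017). Fosb was then called in M1 against M2. Leaving out a library gave 6 to 6 calls for M1 against M0, 6 to 6 for M2 against M0 and 5 to 6 for M1 against M2, which had 8 calls without the fold threshold. With the replicate block these counts were 6, 6 and 5. Same-numbered libraries correlated at -0.0773 to 0.0541 in their deviations and different-numbered ones at -0.0757 to 0.119. The check thus showed no pairing by number, but with 3 libraries a group it cannot exclude one. For digits, no paired analysis was possible because their numbers follow record order and the link of the title codes to animals is not stated. In digits, 86 of 367 single-gene values of genes called above kept direction but lost the call under alternatives. Genes not called above are not in this number, and some of them turned sign or gained a call. Without NR 0 hours replicate 1, the 21-day change in NR digits went from log2 -0.97 to 0.48 for Fos and from -0.97 to 1.41 for Atf3. Without the count filter, Fosb and Egr1 were called in NR digits at 3 days.

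Counts of called genes that moved by over 1.5 times were these. In NR digits DESeq2 gave 1 and 4 at 3 and 6 hours and 3, 1 and 3 on days 3, 7 and 14, 3, 3 and 1 in Int digits at 24 hours, 14 days and 21 days, 1 at 21 days with both groups, and 2 between dates at 24 hours. Without the count filter these were 1 at 3 hours and 2 at 3 days in NR digits, 2 and 1 at 14 and 21 days in Int digits, 1 at 21 days with both groups and 2 between dates at 24 hours. One fit of 41 digits gave 1 at 6 hours, 2 at 7 days and 4 at 14 days in NR digits, 1 and 2 at 24 hours and 14 days in Int digits, and 1 at 21 days with both groups. With the date as a term it gave 1 at 6 hours and 1, 2 and 3 on days 3, 7 and 14 in NR digits, 1 and 2 in Int digits, and 1 at 21 days with both groups. At 14 days with both groups, limma gave 2 and 1 with pseudocounts of 1 and 0.1. Within earlier dates there were 6 calls at 12 hours, and 7 and 4 at 14 and 21 days with both groups. Within later dates there were 1 and 0 at 24 hours and 14 days. The cause was not tested.

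Leaving out 1 digit gave, in NR digits, 0 to 2, 0 to 3, 2 to 4 and 2 to 3 calls at 3, 6, 12 and 24 hours, 0 to 1 on day 3 and 0 to 0 on days 7, 14 and 21. In Int digits it gave 0 to 2, 0 to 5 and 0 to 4 at 24 hours, 14 days and 21 days, and between groups at 24 hours 0 to 1. With both groups it gave 2 to 5, 0 to 4 and 0 to 1, and between dates 4 to 5 at 0 hours and 0 to 1 at 24 hours. From 3 to 6 hours, 7 to 9 means were lower, among them Fosb and Atf3, whose falls led to the choice of the genes. Changes near 0 turned sign there: on the log2 scale Fosl1 ran from -0.31 to 0.48, Fosl2 from -0.32 to 0.033, Egr1 from -0.40 to 0.21 and Egr3 from -0.23 to 0.27, and Junb reached 0.0066. The shallowest digit had 1468749 counts, and the 0 counts of Fosb, Fosl1 and Atf3 in NR 7 days replicate 2 allow up to 3 counts each, for counting error only.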
